A study of Mus musculus with 23 samples.

Results

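Genes for the subunits of voltage-gated and related ion channels were followed in single mouse cells that had or had not been given RNA of another cell. A probe set belonged to this gene group when its only gene symbol was of the form Kcn (potassium channels), Scn followed by a number and a or b (sodium channels), Cacna, Cacnb or Cacng (calcium channels) or Hcn (pacemaker channels). The rule took 254 of the 45101 probe sets on the array, and these stood for 121 of the 18193 genes tested. The symbols were wider than the name of the group. They took in inward rectifiers (15 genes), tandem-pore leak channels (12 genes) and calcium- or sodium-activated potassium channels (8 genes), of which many do not open by voltage. They also took in 3 noncoding transcripts named after a channel gene (Kcnq1ot1, Kcnmb4os1 and Kcnmb4os2), and these were kept because the rule took them.

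Each of the 23 samples was the amplified RNA of 1 cell, drawn up with a glass pipette and measured on 1 Affymetrix array. FibroTIPeR cells (5) were fibroblasts into which cardiomyocyte poly-A RNA had been transfected by lipid, fibroControl cells (3) were fibroblasts that received fibroblast RNA the same way, and fibroblast cells (3) had no transfection. Cardiomyocyte cells (4) had no transfection either and stood for the donor type. AstroTIPeR cells (6) were astrocytes that received cardiomyocyte RNA. AstroControl cells (2) were astrocytes after a mock transfection, a different kind of control from the fibroControl cells, since no donor RNA is named for them. All groups are labelled as isolated cells grown in DMEM with fetal bovine serum. The labels give no strain, age or sex of the animals and no number of cultures, so n counts cells, and a p-value here reflects cell-to-cell spread alone, part of which may be technical. An array reads donor RNA and the recipient's own RNA together, and these cannot be told apart.

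An ion channel is a membrane protein with a gated pore. Sodium channels (Nav) and calcium channels (Cav) carry the inward current of an action potential, and potassium channels (Kv) repolarize the membrane. Inward rectifiers (Kir) and tandem-pore channels (K2P) set the resting potential, and pacemaker channels (HCN) open on hyperpolarization. The pore is made by alpha subunits, and accessory subunits (beta, gamma, alpha2delta, Kcne, Kcnip, Kcnmb) adjust gating and traffic to the membrane. Cardiomyocytes are known for L-type calcium, transient outward and delayed rectifier currents, fibroblasts for calcium-activated potassium channels and astrocytes for the inward rectifier Kcnj10.

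Across the group the arrays gave few differences. Of 121 channel genes, 4 (3.31%, against 1.56% of all genes) differed between fibroControl and fibroblast cells, with Kcnd1 higher and Kcnt2, Kcnk3 and Kcnj14 lower, and 1 of these, Kcnt2 (0.826%, against 0.055% of all genes), was also lower in fibroTIPeR than in fibroblast cells. In the other 5 comparisons, cardiomyocyte against fibroblast cells among them, 0 channel genes passed an adjusted p of 0.05 in limma, where 0% to 0.561% of all genes passed.

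Kcnt2, the sodium-activated potassium channel subunit known as Slick, was the 1 member that passed in both comparisons with untreated fibroblasts, so its promoter is shown. RefSeq places it on the forward strand of chr1:140245468-140245767 (GRCm38.p6), from 250 bases before to 50 bases after the start of the gene. The capitals mark ATTGG, which is the CCAAT box read on the reverse strand.
Kcnt2: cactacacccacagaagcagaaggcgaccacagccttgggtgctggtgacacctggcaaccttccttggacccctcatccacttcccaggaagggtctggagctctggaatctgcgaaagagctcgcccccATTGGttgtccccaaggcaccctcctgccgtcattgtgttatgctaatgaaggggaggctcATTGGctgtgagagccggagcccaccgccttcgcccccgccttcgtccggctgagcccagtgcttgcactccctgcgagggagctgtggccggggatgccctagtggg
The window held 2 CCAAT matches, beginning at -119 and -58 from the start, and 0 matches of TATAAA or GGGCGG, with both strands searched and neither match overlapping another of these motifs. CCAAT was found in 37.4% of 32851 RefSeq promoters of the same length, TATAAA in 13.6% and GGGCGG in 35.7%. The Kcnt2 window had 12 CG pairs and a GC content of 62.7%, against medians of 7 and 52.7% over all promoters. Of the 4 genes called, Kcnt2 was the 1 with a promoter in the tables used, and these letters say nothing about which factors act on it.

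Before the channel genes are described, the cells themselves need a few values. Levels are log2 array values after quantile normalization of all arrays, so that 1 unit is a doubling of the signal, and the median over all genes and cells was 5.71. The deposited columns had medians of 4.28 to 4.56 on astrocyte arrays and 5.05 to 5.58 on the other arrays, so levels set across these sets rest on the normalization. Correlations between arrays over the genes ran from 0.583 to 0.931. The mean of 8 cardiomyocyte markers lay between 8.79 and 10.5 in cardiomyocyte cells, against 5.48 to 6.68 in fibroblast cells. For 8 fibroblast markers the range was 5.93 to 8.24 in cardiomyocyte cells, against 8.09 to 9.74 in fibroblast cells. For 7 astrocyte markers the range was 6.60 to 8.17 in astroTIPeR cells, 6.45 to 6.67 in astroControl cells and 7.35 to 8.06 in cardiomyocyte cells, so the array did not set the cells labelled astrocytes apart by these markers. The mean signal of the 18S control probe sets lay between 11.0 and 13.5 in fibroTIPeR cells 1 to 3, at 7.80 and 7.88 in fibroTIPeR cells 4 and 5, between 11.2 and 12.1 in fibroControl cells and between 7.05 and 8.06 in fibroblast cells.

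Signals of different probe sets are not on one scale, so levels over the group describe array signal and not amounts of RNA. The channel genes' median level was 6.03 over the genes' means, against 5.71 for all genes, and 72 of 121 (59.5%) had a mean above the median of all genes. In 23 of them the lowest cell was above that median, and in 10 the highest cell was below it. These counts were not made over all genes, so they do not set the channel genes apart from the rest of the array. The 10 included Kcnj2, the main inward rectifier of ventricular muscle, whose cells lay between 1.43 and 4.69, and Kcna5, an atrial delayed rectifier, whose cells lay between 2.62 and 5.40. They also included the accessory subunits Kcne1, Kcne2 and Kcne3, none of which reached 5.71 in any of the 23 cells, cardiomyocytes included. Detection calls are not used here, so these values do not say whether a transcript was present.

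At the other end, 12 channel genes had means above the 90th percentile of all gene means (10.47). These 12 are 9.92% of the channel genes, about the share that such a percentile leaves above it in all genes. They were the calcium channel genes Cacna1d, Cacnb1 and Cacng7, the sodium channel gene Scn2a, the calcium-activated potassium channel genes Kcnma1 and Kcnn2, and Kcnc1, Kcnh1, Kcnh3, Kcnq3, Kcnab2 and Kcnmb2. Kcnn2, a small-conductance calcium-activated channel, lay between 12.01 and 12.7 over the 23 cells, with an SD of 0.18. Scn2a, a sodium channel known from brain, lay between 11.5 and 12.7 (SD 0.30), in cardiomyocytes and fibroblasts as in astrocytes. Cacng7, a gamma subunit known as a partner of AMPA receptors in neurons, lay between 12.2 and 13.5 (SD 0.31). The SD of the 12 ran from 0.18 to 0.62, with a median of 0.41, against 0.39 for the 1820 genes above the same percentile. Kcnc1 (10.6 to 13.6) and Kcnh1 (8.89 to 11.6) had the widest ranges of the 12. The plot of level against spread shows these genes among the others of high signal.

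**Figure D1:**
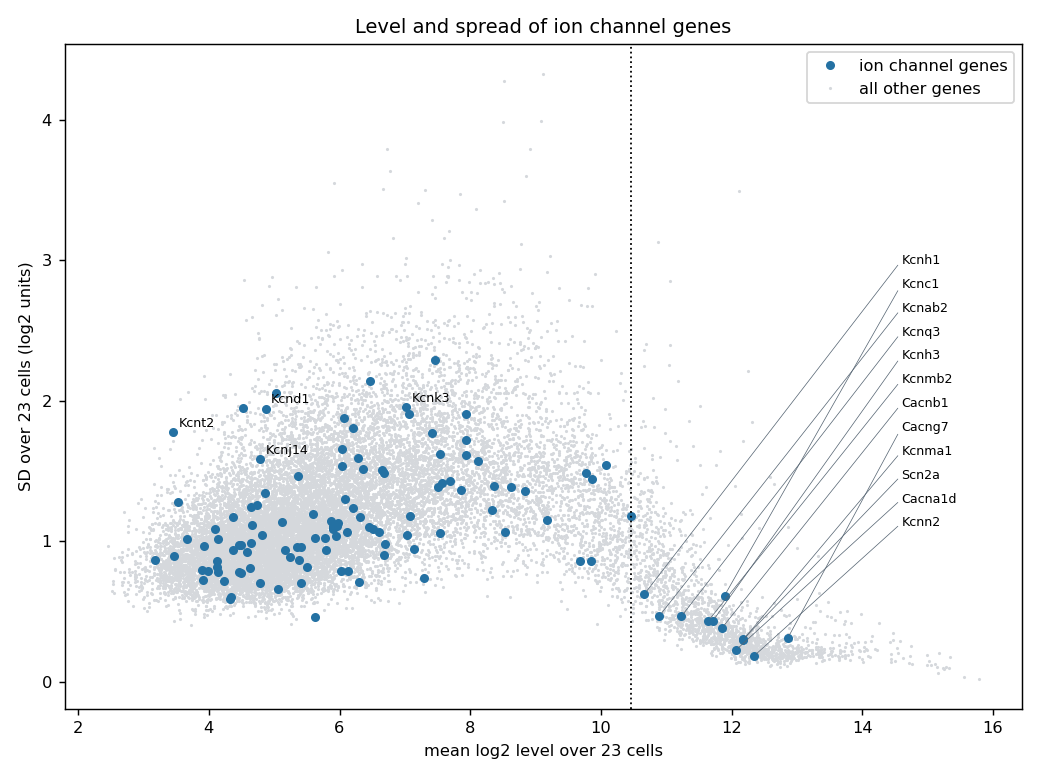
Mean log2 level of each gene over the 23 cells (x axis) against the SD over the same cells (y axis, log2 units). Blue points are the 121 ion channel genes, grey points are the other genes tested, and the dotted line is the 90th percentile of gene means at 10.47; the 12 channel genes to its right have an SD of 0.18 to 0.62, and Kcnt2, Kcnk3, Kcnj14 and Kcnd1 lie left of it with larger SDs.

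Of the 121 genes, 72 had more than 1 probe set, and these rarely moved together. Over 228 pairs of probe sets of 1 gene, the median correlation across the 23 cells was 0.004, and 8 pairs (3.51%) were above 0.5. Over all genes with several probe sets, 30372 pairs had a median of 0.034, and 6.64% were above 0.5. The pairs above 0.5 included a pair each of Kcnh3 (0.84), an ether-a-go-go type potassium channel, Kcnma1 (0.63), the large-conductance calcium-activated channel, and Cacng2 (0.55), the gamma subunit known as stargazin. The Kcnh3 and Cacng2 pairs left out the probe set of highest mean. That probe set correlated at -0.037, 0.003 and -0.068 with the others of Kcnh3, and at 0.201 and 0.246 with those of Cacng2. The Kcnma1 pair held it, but its correlations with the remaining Kcnma1 probe sets were -0.337 to 0.108. The points of each correlation are the same 23 cells and share their arrays and normalization. A value of a channel gene below is therefore a value of 1 named probe set, the one with the highest mean.

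By family, the potassium channel accessory subunits (15 genes of the Kcnab, Kcne, Kcnip and Kcnmb kinds) had family medians of 7.20 to 9.33 in cardiomyocyte cells, against 6.45 to 7.42 in fibroblast cells. Voltage-gated potassium alpha subunits (31 genes) lay between 5.71 and 6.42 in cardiomyocyte cells, against 5.38 to 6.39 in fibroblast cells, and inward rectifiers (15 genes) between 5.77 and 7.35, against 6.02 to 6.42. These ranges overlapped. Tandem-pore channels (12 genes) lay between 5.03 and 5.92 in fibroTIPeR cells and between 4.92 and 6.19 in fibroControl cells, against 5.78 to 6.83 in fibroblast cells. The calcium channel alpha1 family (9 genes), which holds the pores of the L-, T- and N-type channels, lay between 6.62 and 8.16 in astroTIPeR cells, against 5.98 and 6.02 in astroControl cells. It lay between 5.49 and 7.0 in fibroControl cells, against 7.33 to 8.49 in fibroblast cells. These family medians are descriptions over few genes, with no test.

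In a family of 3 genes the median is the value of 1 gene. In the calcium channel beta family (Cacnb1, Cacnb2 and Cacnb4), whose products bring the pore to the membrane, the middle gene was mostly Cacnb4. Cacnb4 was at 4.95, 5.20 and 4.78 in fibroControl cells, against 6.86, 7.39 and 7.97 in fibroblast cells. In fibroTIPeR cells Cacnb4 was at 5.51, 6.40, 4.21, 5.71 and 8.05, and its highest cell was above every fibroblast cell. Cacnb1 lay between 11.0 and 12.3 over all 23 cells, and Cacnb2, the main cardiac beta subunit, between 2.92 and 6.28. Sodium channel alpha subunits (8 genes) had family medians of 4.41 to 5.50 in astroTIPeR cells, against 5.12 and 7.26 in astroControl cells.

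**Figure D2:**
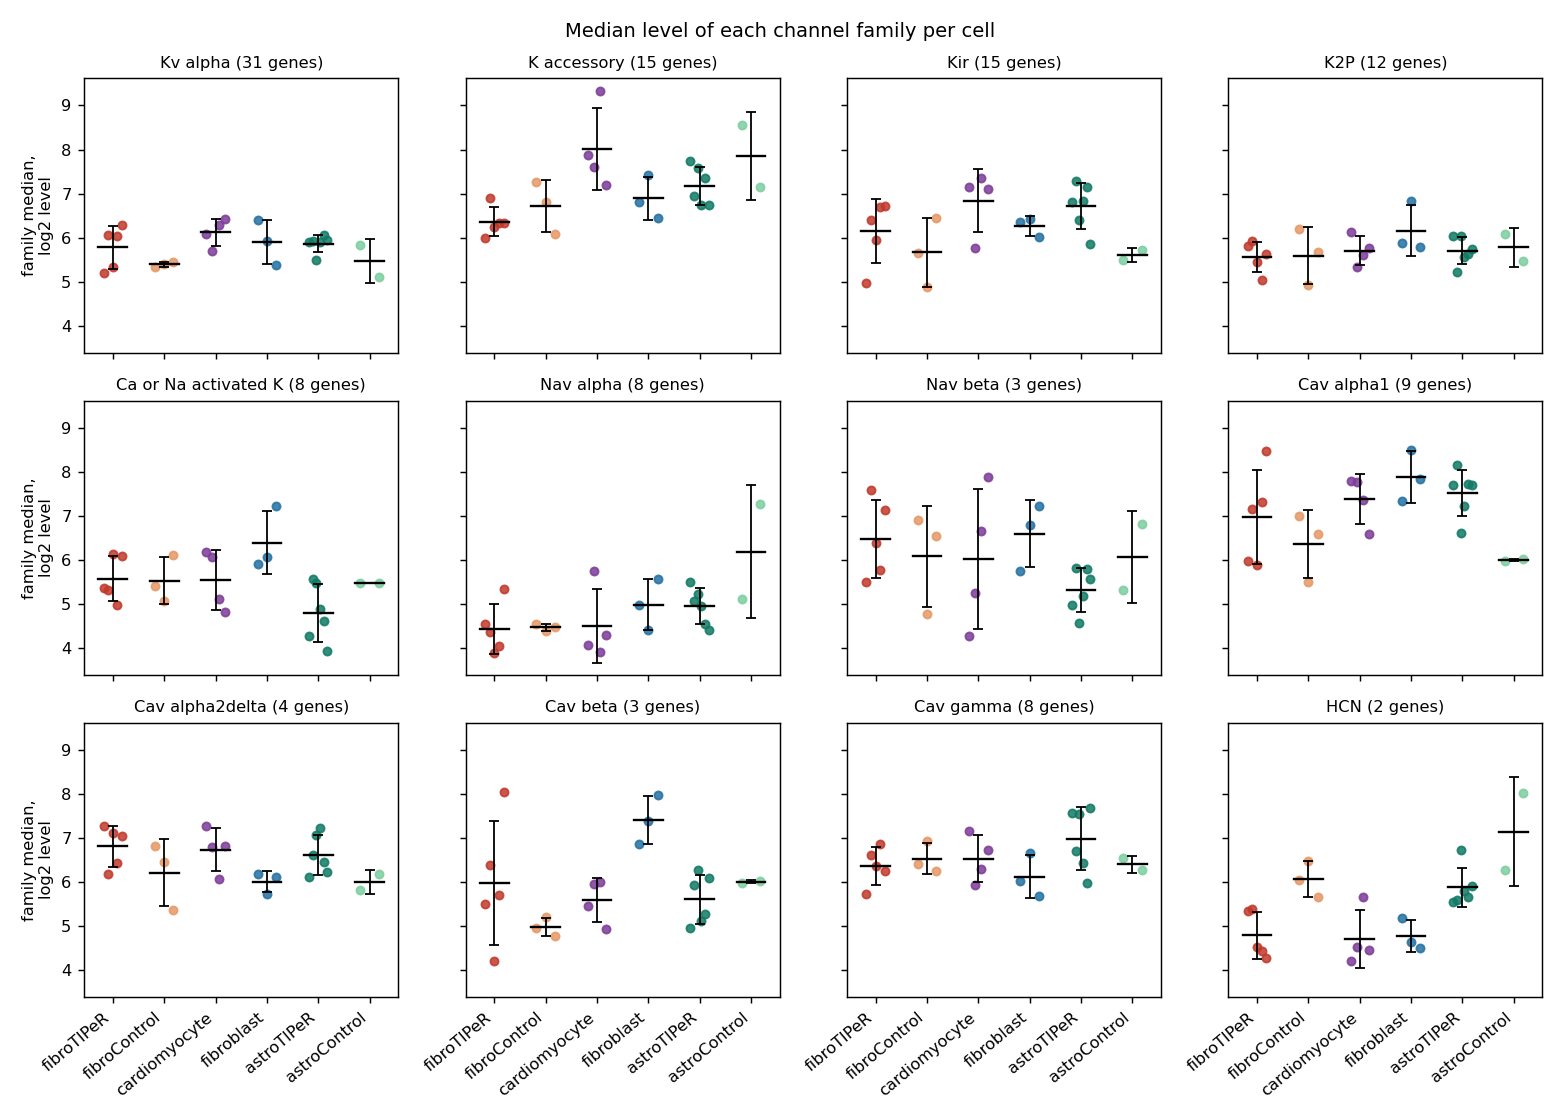
Each panel is a channel family, each point the median log2 level (y axis) of its genes in 1 cell, and the bars the mean and SD over the cells of a group (x axis). The accessory potassium subunits reach 9.33 in a cardiomyocyte cell, and the calcium channel beta panel, which follows Cacnb4, has fibroblast cells at 6.86 to 7.97.

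Cardiomyocyte cells were compared with fibroblast cells to see which channel genes told the donor type from the recipient type. Kcnip2, the accessory subunit of the cardiac transient outward current, and Kcnq1, the pore of the slow delayed rectifier, had the largest positive differences of the cardiac channel genes, and neither passed the test. None of the 121 genes passed, against 0.225% of all genes (41 of 18193) in limma. At an unadjusted p under 0.05 there were 12 channel genes (9.92%), 7 higher and 5 lower in cardiomyocytes, against 9.72% of all genes. The share of channel genes that differed was near that of the array as a whole. There was no overlap between the groups for 18 channel genes (14.9%), against 12.6% of all genes.

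Of 26 genes listed for cardiac excitability, 22 were measured and 4 are not analysed here. Their differences between cardiomyocyte and fibroblast cells were positive for 11 and negative for 11, with a median of 0.04, against 0.09 over all genes. Kcnq1 was at 5.93, 5.46, 7.14 and 9.42 in cardiomyocyte cells, against 4.81, 3.84 and 5.10 in fibroblast cells. The groups did not overlap, and the difference was 2.40 (95% interval 0.45 to 4.35, adjusted p = 0.396). Cardiomyocyte cell 4, the highest for Kcnq1, had a fibroblast marker mean of 8.24, against 5.93 to 6.63 in the other cardiomyocyte cells. Its Vim was at 11.4, against 3.05 to 4.65, while its Col1a2 was at 4.70, against 4.63 to 5.55. The part of these markers in the difference was not tested. Kcnip2 was at 7.44, 8.06, 9.44 and 8.91 in cardiomyocyte cells, against 4.01, 6.89 and 7.25 in fibroblast cells, also without overlap. Its difference was 2.41 (0.45 to 4.37, adjusted p = 0.397), and fibroblast cell 1 was far below the other 2.

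Calcium channel genes of the cardiac set went either way. Cacna1c, the pore of the cardiac L-type channel, was at 6.69, 7.02, 10.4 and 6.58 in cardiomyocyte cells, against 8.19, 10.3 and 8.95 in fibroblast cells. The difference was -1.47 (-3.99 to 1.05), an interval that holds a rise of over 1 unit as well as a larger fall, with overlap between the groups. Cacna1d, an L-type pore of pacemaker tissue, was at 12.4, 12.5, 12.1 and 12.3 in cardiomyocyte cells, against 11.8, 11.8 and 12.1 in fibroblast cells, a difference of 0.44 (0.03 to 0.85, adjusted p = 0.477). The T-type pores Cacna1g and Cacna1h differed by -1.17 (-3.78 to 1.44) and -1.22 (-2.68 to 0.23). The accessory subunits Cacnb2 and Cacna2d1 differed by 1.29 (-0.03 to 2.60) and 0.59 (-0.87 to 2.06).

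Of the other potassium channel genes in the set, Kcnj5, a subunit of the atrial channel opened by acetylcholine, averaged 9.02 ± 0.98 in cardiomyocyte cells (SD, n = 4) and 7.38 ± 0.21 in fibroblast cells (n = 3). Kcnj2 averaged 2.66 ± 0.75 in cardiomyocyte cells and 2.56 ± 0.38 in fibroblast cells. Kcnh2, the rapid delayed rectifier, averaged 4.85 ± 0.89 in cardiomyocyte cells and 4.65 ± 0.36 in fibroblast cells. Kcnd2 and Kcnd3, the pores of the transient outward current, differed by -0.84 (-2.85 to 1.16) and -0.53 (-2.74 to 1.67), while their partner Kcnip2 had a positive difference. Hcn2, a pacemaker subunit, was at 4.15 ± 0.87 in cardiomyocyte cells and 4.15 ± 0.58 in fibroblast cells.

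The channel genes with the smallest p in this comparison were Kcnt2, Kcnj14 and Kcnma1. Kcnt2 was at 5.66, 4.84, 2.15 and 2.09 in cardiomyocyte cells, against 7.20, 4.73 and 8.20 in fibroblast cells, a difference of -3.03 (SE 0.78, adjusted p = 0.125) with overlap. With 1 cell left out it ran from -4.02 without fibroblast cell 2 (adjusted p = 0.0388) to -2.28 without fibroblast cell 3 (adjusted p = 0.658), and it also passed without cardiomyocyte cell 1 (-3.68, adjusted p = 0.0461). Kcnj14, an inward rectifier, was at 3.40, 5.23, 4.01 and 4.65 in cardiomyocyte cells, against 5.61, 5.95 and 10.7 in fibroblast cells, a difference of -3.10 (SE 0.87, adjusted p = 0.173). Without fibroblast cell 3, the high one, the Kcnj14 difference was -1.46 (adjusted p = 0.815). Kcnma1 was at 12.5, 12.4, 12.3 and 12.03 in cardiomyocyte cells, against 11.5, 12.1 and 11.4 in fibroblast cells, a difference of 0.63 (95% interval 0.23 to 1.04, adjusted p = 0.255).

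Genes listed for fibroblast and astrocyte channels are given as levels. Kcnn4, the intermediate-conductance calcium-activated channel of proliferating fibroblasts, lay between 6.61 and 7.26 in cardiomyocyte cells, against 6.23 to 7.27 in fibroblast cells. It was at 11.9, 8.24, 6.69, 8.78 and 7.84 in fibroTIPeR cells and at 10.7, 7.46 and 8.45 in fibroControl cells, where the fibroControl cells all lay above the fibroblast cells (a difference of 2.25, adjusted p = 0.249). Kcnk6, a tandem-pore channel gene of the same list, was at 5.67, 4.69, 4.45, 5.08 and 8.11 in fibroTIPeR cells and at 4.95, 4.12 and 4.51 in fibroControl cells, against 6.34, 7.74 and 8.40 in fibroblast cells. Its fibroControl cells all lay below the fibroblast cells, a difference of -2.97 (adjusted p = 0.233), so the list had no common direction. Kcnj10 was at 6.64, 4.33, 5.32, 4.74, 7.49 and 7.18 in astroTIPeR cells and at 6.13 and 5.73 in astroControl cells. In the 15 cells of fibroblasts and cardiomyocytes Kcnj10 lay between 2.92 and 4.79, below 6 of the 8 astrocyte cells, a difference in level that rests on the normalization across the array sets. Kcnj16, which pairs with Kcnj10 in glia, lay between 9.58 and 10.4 in astroTIPeR cells, at 10.6 and 8.36 in astroControl cells, between 10.7 and 10.9 in cardiomyocyte cells and between 8.66 and 10.2 in fibroblast cells. Of the tandem-pore genes, Kcnk1 lay between 5.29 and 5.90 in astroTIPeR cells and at 6.50 and 5.35 in astroControl cells, against 2.55 to 6.28 in the 15 other cells. Kcnk2 lay between 6.20 and 7.88 in astroTIPeR cells and at 7.94 and 7.06 in astroControl cells, against 6.07 to 8.70, and Kcnk10 between 5.65 and 6.62 and at 6.72 and 4.66, against 4.22 to 7.62. For each of these 4 genes the astrocyte range overlapped that of the other cells.

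**Figure D3:**
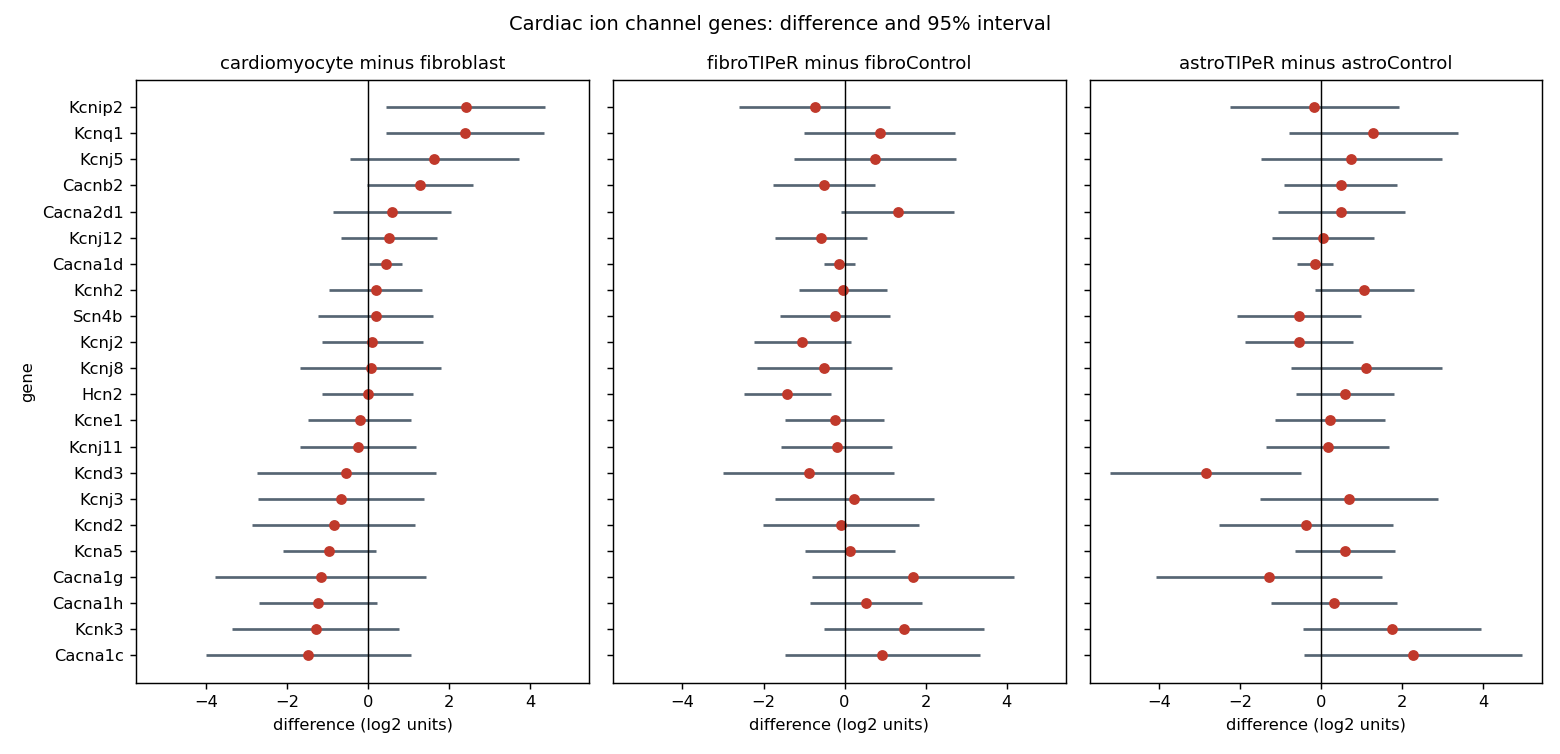
Difference in log2 level (x axis, points) with its 95% interval (bars) for the 22 measured cardiac channel genes (y axis), in cardiomyocyte minus fibroblast, fibroTIPeR minus fibroControl and astroTIPeR minus astroControl cells. Kcnip2 (2.41) and Kcnq1 (2.40) head the first panel, and the genes do not keep that order in the panels for cells given cardiomyocyte RNA.

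FibroTIPeR cells were set against fibroControl cells to ask what cardiomyocyte RNA did beyond fibroblast RNA. No channel gene passed, against 0.0055% of all genes (1 of 18193) in limma. The number of channel genes at an unadjusted p under 0.05 was 9 (7.44%), 4 higher and 5 lower, against 6.62% of all genes. The median difference over the 121 genes was 0.01, and over all genes -0.02. There was no overlap between the groups for 5 channel genes (4.13%), against 3% of all genes. Of the 22 cardiac genes, 9 had positive and 13 negative differences, with a median of -0.11.

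The cardiac genes with the largest positive differences in cardiomyocytes did not pass here. Kcnq1 was at 6.28, 6.32, 5.83, 5.35 and 4.38 in fibroTIPeR cells, against 5.20, 4.89 and 4.21 in fibroControl cells, a difference of 0.87 (95% interval -1.0 to 2.73). Kcnip2 was at 6.34, 9.39, 6.72, 5.34 and 6.09 in fibroTIPeR cells, against 8.62, 7.34 and 6.59 in fibroControl cells, a difference of -0.74 (-2.62 to 1.13). Both genes overlapped between the groups. The intervals leave room for a rise of over 1 unit in either gene.

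The smallest p values belonged to Kcnd1, Kcne3 and Hcn2, each with a negative difference. Kcnd1, a pore of A-type potassium current, was at 8.10, 4.37, 4.81, 4.31 and 3.72 in fibroTIPeR cells, against 3.95, 10.3 and 10.0 in fibroControl cells. Its difference was -3.02 (SE 1.0, adjusted p = 0.496). It ran from -5.09 without fibroControl cell 1, the low one (adjusted p = 0.00783), to -1.92 without fibroControl cell 2 (adjusted p = 0.853). Its size therefore changed with which fibroControl cell was left out. Kcne3, an accessory subunit of Kcnq1, was at 2.92, 2.36, 2.27, 2.90 and 3.18 in fibroTIPeR cells, against 5.47, 3.62 and 4.07 in fibroControl cells. The groups did not overlap, and the difference was -1.66 (adjusted p = 0.530). Hcn2 was at 4.40, 3.98, 3.38, 4.36 and 3.18 in fibroTIPeR cells, against 5.12, 4.99 and 5.69 in fibroControl cells, a difference of -1.41 (adjusted p = 0.574), again without overlap.

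Within the fibroTIPeR cells, Scn3b, a sodium channel beta subunit, split with the 18S level and with the means of smooth muscle and astrocyte markers. It was at 5.51, 8.77 and 8.15 in fibroTIPeR cells 1 to 3 and at 12.1 and 11.1 in fibroTIPeR cells 4 and 5, against 9.73, 8.54 and 8.09 in fibroControl cells. Untreated fibroblast cells had Scn3b at 11.8, 11.9 and 9.41, and their 18S range, 7.05 to 8.06, held that of fibroTIPeR cells 4 and 5. With fibroTIPeR cells 4 and 5 alone Scn3b was the 1 channel gene that passed against fibroControl cells, as a higher gene, where 0.885% of all genes passed (161 of 18193). With cells 1 to 3 alone 0 passed. The mean of 4 smooth muscle markers (Acta2, Myh11, Tagln and Cnn1) lay between 9.29 and 9.35 in fibroTIPeR cells 1 to 3 and at 4.83 and 4.43 in cells 4 and 5. It was 5.17 to 7.72 in fibroControl cells and 6.59 to 8.08 in untreated fibroblast cells. The mean of 7 astrocyte markers lay between 5.49 and 6.35 in cells 1 to 3 and at 7.21 and 6.90 in cells 4 and 5. It was 6.15 to 6.56 in fibroControl cells and 6.48 to 7.65 in untreated fibroblast cells. Of the smooth muscle markers, 3 of 4 did not overlap between cells 1 to 3 and cells 4 and 5, Tagln with 11.0 to 13.5 against 4.96 and 4.5 among them. Of the astrocyte markers, S100b and Glul did not overlap between these cells, while Gfap, Aqp4, Slc1a3, Slc1a2 and Aldoc did. The part of these markers in the result was not tested. Scn3b and the split were picked after the values were seen.

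FibroTIPeR cells were also set against untreated fibroblast cells, a comparison that holds transfection and donor RNA together. Kcnt2 fell by 3.87 on the log2 scale in fibroTIPeR cells and was the 1 channel gene that passed. That is 0.826% of the channel genes, against 0.055% of all genes (10 of 18193). Before adjustment, p was under 0.05 for 14 channel genes (11.6%), 3 higher and 11 lower, against 10.1% of all genes. The median difference was -0.12 over the channel genes and 0.00 over all genes. There was no overlap between the groups for 11 channel genes (9.09%), against 5.01% of all genes.

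Kcnt2 was at 3.54, 2.57, 2.18, 2.54 and 3.37 in fibroTIPeR cells, against 7.20, 4.73 and 8.20 in fibroblast cells. Every fibroTIPeR cell lay below every fibroblast cell, with means of 2.84 ± 0.59 (SD, n = 5) and 6.71 ± 1.79 (n = 3). The difference was -3.87 (SE 0.75, adjusted p = 0.0464). The levels in fibroTIPeR cells are below the median of all genes and no detection calls are used, so the difference is one of array signal and not a measured fold of RNA. The call was close to the threshold. It was lost without fibroTIPeR cell 1, 2, 3 or 4 or fibroblast cell 1 or 3 (adjusted p of 0.055 to 0.363), and under most other settings, while the difference stayed between -4.86 and -3.13 over the cells left out.

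The next smallest p values were those of Kcnh5 and Kcnk3, which did not pass. Kcnh5, an ether-a-go-go type potassium channel, was at 3.54, 1.81, 2.84, 5.24 and 3.37 in fibroTIPeR cells, against 6.69, 10.3 and 6.29 in fibroblast cells, without overlap. The difference was -4.41 (adjusted p = 0.115), the largest of those named in this comparison. Kcnk3, the acid-sensitive tandem-pore channel TASK-1, was at 6.23, 8.39, 5.93, 8.26 and 5.46 in fibroTIPeR cells, against 8.54, 8.15 and 12.8 in fibroblast cells, a difference of -2.98 (adjusted p = 0.287) with overlap. Without fibroblast cell 3 the Kcnk3 difference was -1.49 (adjusted p = 0.599).

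More channel genes passed when the fibroTIPeR cells of high 18S signal and high smooth muscle markers (a mean of 9.29 to 9.35, against 6.59 to 8.08 in fibroblast cells) were taken alone. With fibroTIPeR cells 1 to 3 alone, 7 channel genes passed against fibroblast cells, Kcnk7 higher and Cacna1c, Kcnh5, Kcnt2, Kcnu1, Kcnv2 and Scn3b lower, where 3.35% of all genes passed. With fibroTIPeR cells 4 and 5 alone 0 passed, and 0 passed when the 18S signal was entered in the fit. Cacna1c was at 4.22, 4.88 and 5.12 in fibroTIPeR cells 1 to 3 and at 8.73 and 7.62 in cells 4 and 5, against 8.19, 10.3 and 8.95 in fibroblast cells. Kcnk7, a tandem-pore channel gene, was at 5.76, 7.59 and 7.99 in fibroTIPeR cells 1 to 3 and at 4.16 and 3.37 in cells 4 and 5, against 4.05, 3.74 and 2.54 in fibroblast cells. Kcnt2, at 2.54 and 3.37 in cells 4 and 5, was low in both kinds of fibroTIPeR cell. These genes other than Kcnt2 and Kcnh5 were named after their values were seen. The split into cells 1 to 3 and cells 4 and 5 was picked after the values were seen as well, so these 7 calls describe the cells kept.

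FibroControl cells were set against untreated fibroblast cells to see what transfection with RNA of the same cell type did, and this comparison had the most channel genes called. Kcnd1 rose by 4.51, and Kcnk3, Kcnt2 and Kcnj14 fell by 4.45, 3.85 and 3.71. The 4 genes are 3.31% of the channel genes, against 1.56% of all genes (283 of 18193) in limma. The number of channel genes at an unadjusted p under 0.05 was 27 (22.3%), 8 higher and 19 lower, against 17.3% of all genes. The median difference was -0.28 over the channel genes and 0.03 over all genes. There was no overlap between the groups for 38 channel genes (31.4%), against 23.4% of all genes. Both comparisons with untreated cells use the same 3 fibroblast cells.

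Kcnt2 was at 3.54, 3.0 and 2.04 in fibroControl cells, against 7.20, 4.73 and 8.20 in fibroblast cells, a difference of -3.85 (SE 0.83, adjusted p = 0.0204) without overlap. The call was lost without fibroControl cell 3 or fibroblast cell 1 or 3 (adjusted p of 0.0623 to 0.0866), where the difference was -3.10 to -3.61. Between fibroTIPeR and fibroControl cells Kcnt2 differed by -0.02 (95% interval -1.55 to 1.51). The fibroblasts given either donor RNA lay between 2.04 and 3.54. In astrocytes Kcnt2 was at 2.63, 1.43, 2.99, 2.17, 1.43 and 2.0 in astroTIPeR cells, against 4.16 and 4.90 in astroControl cells, a difference of -2.43 (adjusted p = 0.275) that did not pass. Kcnt2 has 1 probe set on this array.

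Kcnk3 was at 5.83, 4.12 and 6.19 in fibroControl cells, against 8.54, 8.15 and 12.8 in fibroblast cells, a difference of -4.45 (SE 1.07, adjusted p = 0.0346). The groups did not overlap, and fibroblast cell 3 was far above the other 2. The other 2 probe sets of Kcnk3 differed by 0.07 and -0.40 (adjusted p = 0.968 and 0.798 over all probe sets), so the fall was seen with 1 of 3 probe sets. Kcnj14, which has 1 probe set, was at 3.95, 3.62 and 3.56 in fibroControl cells, against 5.61, 5.95 and 10.7 in fibroblast cells, a difference of -3.71 (SE 0.93, adjusted p = 0.0412) without overlap. Without fibroblast cell 3 the differences were -2.96 for Kcnk3 (adjusted p = 0.138) and -2.07 for Kcnj14 (adjusted p = 0.163), and neither passed. That cell also had the highest cardiomyocyte marker mean of the fibroblast cells, 6.68 against 5.96 and 5.48. Its Tnnt2 was at 11.3, against 7.68 and 6.41, while its Tnni3 and Pln were the lowest of the fibroblast cells. Its fibroblast marker mean was 9.74, against 8.42 and 8.09. The part of these markers in the calls was not tested.

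Kcnd1 was at 3.95, 10.3 and 10.0 in fibroControl cells, against 3.94, 3.84 and 2.95 in fibroblast cells, a difference of 4.51 (SE 1.11, adjusted p = 0.0401). FibroControl cell 1 was at the level of fibroblast cell 1, and fibroControl cells 2 and 3 were far above all fibroblast cells. FibroTIPeR cell 1, at 8.10, was the 1 other cell of the 23 above 6 for this gene. The other probe sets of Kcnd1 differed by 1.63 and 1.22 (adjusted p = 0.190 and 0.339 over all probe sets). Without any 1 cell other than fibroControl cell 1 the gene no longer passed, with adjusted p of 0.0705 to 0.149.

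**Figure D4:**
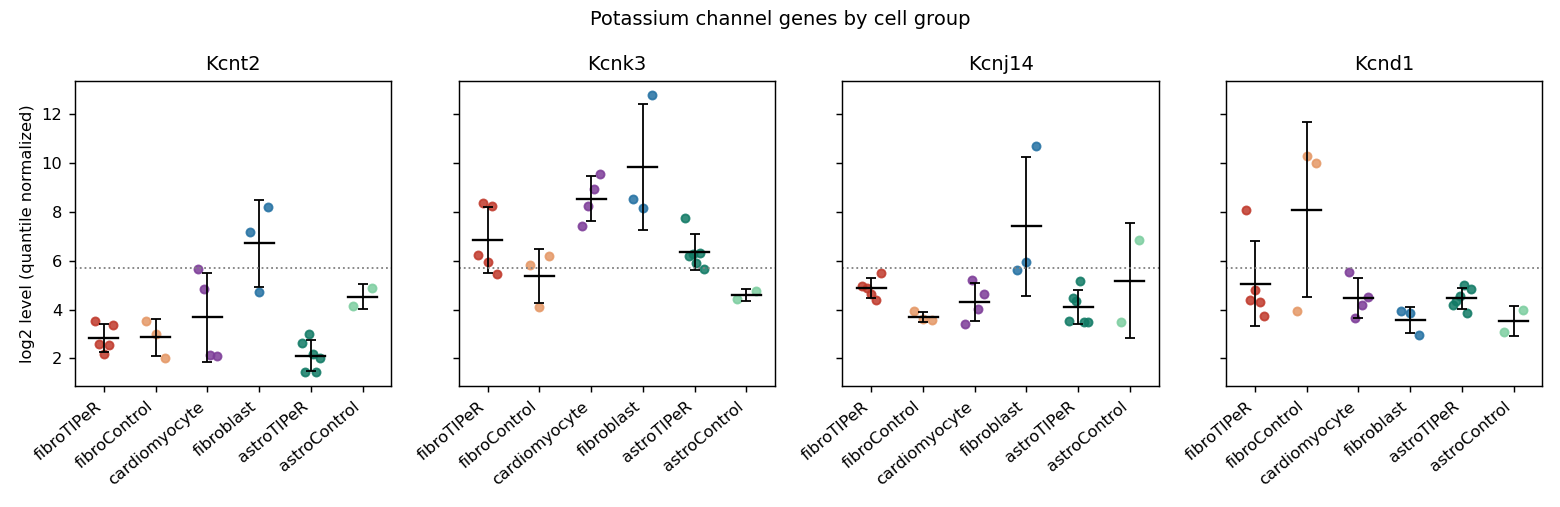
Log2 level after quantile normalization (y axis) of Kcnt2, Kcnk3, Kcnj14 and Kcnd1 in each cell (points), with the mean and SD of each group (bars) and the median of all genes at 5.71 (dotted line). Kcnt2 is at 2.04 to 3.54 in the 8 fibroblasts given RNA and at 4.73 to 8.20 in untreated fibroblasts, while the high values of Kcnk3 and Kcnj14 in fibroblast cells come largely from 1 cell and those of Kcnd1 in fibroControl cells from 2.

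With every probe set tested in place of 1 per gene, 6 channel probe sets passed between fibroControl and fibroblast cells, where 1.37% of all probe sets passed (479 of 34945). They were those of the 4 genes above and 1 each of Kcnip1 and Kcnj3. The Kcnip1 probe set, for a calcium-binding partner of A-type channels, was at 10.8, 10.8 and 10.9 in fibroControl cells, against 4.82, 2.67 and 6.25 in fibroblast cells, a difference of 6.25 (adjusted p = 0.0326). In fibroTIPeR cells the same Kcnip1 probe set was at 12.7, 10.1 and 12.4 in cells 1 to 3 and at 6.52 and 4.70 in cells 4 and 5, so it was high in the 6 cells with an 18S signal above 11. The other 3 Kcnip1 probe sets differed by -0.67 to 1.06 (adjusted p of 0.663 to 0.937).

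The Kcnj3 probe set, for a subunit of the atrial channel opened by acetylcholine, was at 3.22, 4.52 and 3.63 in fibroControl cells, against 6.21, 7.70 and 7.89 in fibroblast cells, a difference of -3.47 (adjusted p = 0.0167). It was at 6.34, 6.11, 6.59, 5.38 and 7.49 in fibroTIPeR cells, all above the fibroControl cells. The other 3 Kcnj3 probe sets differed by -0.64, -0.39 and 0.60 (adjusted p of 0.642 to 0.812). Kcnip1 and Kcnj3 were named after their values were seen, and neither passed with the probe set of highest mean.

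The 18S signal moved with these differences. It was 11.2 to 12.1 in fibroControl cells, against 7.05 to 8.06 in fibroblast cells, and with it as a covariate 0 channel genes and 0 of all genes passed between these groups. The 18S ranges of these groups do not overlap, so the 18S level and the group cannot be told apart. The cardiomyocyte marker mean was 4.79 to 5.10 in fibroControl cells, against 5.48 to 6.68 in fibroblast cells, and its part in the result was not tested.

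FibroTIPeR cells were set against cardiomyocyte cells to see how far the recipients stood from the donor type. None of the 121 genes passed, against 0.561% of all genes (102 of 18193). At an unadjusted p under 0.05 there were 13 channel genes (10.7%), 4 higher and 9 lower, against 14.3% of all genes. The median difference was -0.30 over the channel genes, with 79 of 121 negative, and -0.14 over all genes. There was no overlap between the groups for 4 channel genes (3.31%), against 3.9% of all genes. Of the 15 potassium accessory subunits 12 had negative differences, with a median of -0.73.

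Kcne3 was at 2.92, 2.36, 2.27, 2.90 and 3.18 in fibroTIPeR cells, against 4.65, 4.13, 3.74 and 4.35 in cardiomyocyte cells, a difference of -1.49 (adjusted p = 0.227) without overlap. Kcnh5 was at 3.54, 1.81, 2.84, 5.24 and 3.37 in fibroTIPeR cells, against 6.44, 5.25, 6.37 and 5.69 in cardiomyocyte cells, a difference of -2.58 (adjusted p = 0.240). Cacna2d2, an alpha2delta subunit that raises calcium channel current, was at 8.95, 7.05, 8.18, 5.45 and 7.82 in fibroTIPeR cells, against 5.93, 4.40, 5.83 and 6.13 in cardiomyocyte cells, a difference of 1.92 (adjusted p = 0.241). These had the smallest p values, and none passed.

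With fibroTIPeR cells 1 to 3 alone, 4 channel genes passed against cardiomyocyte cells, where 5.8% of all genes passed. The tandem-pore genes Kcnk7 and Kcnk15 were higher and the silent Kv subunit Kcnv2 and Scn3b were lower. Kcnk15 was at 8.78, 6.54 and 9.50 in fibroTIPeR cells 1 to 3 and at 3.80 and 5.66 in cells 4 and 5, against 4.65, 4.13, 5.73 and 4.58 in cardiomyocyte cells. Kcnv2 was at 3.22, 4.37 and 3.68 in fibroTIPeR cells 1 to 3 and at 5.76 and 6.80 in cells 4 and 5, against 5.84, 5.33, 6.19 and 6.28 in cardiomyocyte cells. These 4 genes, and the split into cells 1 to 3 and cells 4 and 5, were picked after the values were seen, so the calls describe the cells kept.

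AstroTIPeR cells were set against mock-transfected astroControl cells to follow the same donor RNA in another recipient. None of the 121 genes passed, against 0.0495% of all genes (9 of 18193). At an unadjusted p under 0.05 there were 13 channel genes (10.7%), 3 higher and 10 lower, against 9.44% of all genes. The median difference was 0.16 over the channel genes and 0.08 over all genes. There was no overlap between the groups for 17 channel genes (14%), against 11.8% of all genes. Of the 22 cardiac genes, 15 had positive and 7 negative differences, with a median of 0.40, and 0 passed.

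Cacng2 was at 8.68, 9.16, 10.4, 9.88, 9.38 and 8.88 in astroTIPeR cells, against 6.13 and 6.73 in astroControl cells. Every astroTIPeR cell lay above both astroControl cells, and the difference was 2.96 (adjusted p = 0.107). It passed as deposited, under median centring and under normalization within the array set. With every probe set tested, 0 channel probe sets passed in this comparison. The other probe sets of Cacng2 correlated with this one at 0.201 and 0.246. With each cell left out in turn, the Cacng2 difference ran from 2.67 to 3.26. Hcn3, a pacemaker subunit, was at 5.52, 6.78, 7.69, 7.09, 6.48 and 6.70 in astroTIPeR cells, against 8.68 and 11.0 in astroControl cells, a difference of -3.11 (adjusted p = 0.150) without overlap. Hcn3 passed under median centring, and without astroControl cell 2 its difference was -1.97 (adjusted p = 0.880).

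Scn10a, a sodium channel of sensory neurons, was at 3.54, 4.64, 4.37, 3.26, 3.21 and 4.15 in astroTIPeR cells, against 4.43 and 8.28 in astroControl cells, a difference of -2.49 (adjusted p = 0.176). Its high value was that of astroControl cell 2. Without that cell the difference was -0.57 (adjusted p = 0.990) and 0 channel genes passed. With it as the 1 control, 4 channel genes had adjusted p under 0.05 (Cacna2d4, Hcn3, Kcna2 and Scn10a, all lower in astroTIPeR cells), where 2.98% of all genes did. That fit takes the spread of the lone control cell from the other groups, so these 4 describe the high values of astroControl cell 2. Kcna2 was at 5.45 to 6.65 in astroTIPeR cells, against 5.83 and 9.95 in astroControl cells, and Cacna2d4 at 5.60 to 7.63, against 6.92 and 11.8. Kcna2 and Cacna2d4 were named after their values were seen.

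Of the other cardiac genes in astrocytes, Kcnd3 was at 8.07, 5.77, 4.97, 5.02, 6.58 and 3.95 in astroTIPeR cells, against 8.79 and 8.35 in astroControl cells, a difference of -2.85 (95% interval -5.21 to -0.49, adjusted p = 0.392). Cacna1c was at 5.52, 9.44, 6.62, 5.58, 5.32 and 4.33 in astroTIPeR cells, against 2.64 and 5.12 in astroControl cells, a difference of 2.26 (-0.44 to 4.95). Kcnq1 differed by 1.29 (-0.79 to 3.37) and Kcnip2 by -0.17 (-2.26 to 1.93), the genes with the largest positive differences in cardiomyocyte against fibroblast cells.

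The effect of cardiomyocyte RNA in fibroblasts (fibroTIPeR minus fibroControl) was tested against its effect in astrocytes (astroTIPeR minus astroControl). None of the channel genes passed, nor did any of the 18193 genes (0%). At an unadjusted p under 0.05 there were 10 channel genes (8.26%), 5 with a larger and 5 with a smaller effect in fibroblasts, against 7.65% of all genes. The smallest p values were those of Scn10a (difference of effects 3.03, adjusted p = 0.486), Cacng2 (-2.87, adjusted p = 0.503) and Kcnmb4os1, a transcript from the strand opposite a BK channel beta subunit gene (3.08, adjusted p = 0.524). The Scn10a value ran from 1.10 without astroControl cell 2 (adjusted p = 0.948) to 4.96 without astroControl cell 1 (adjusted p = 0.0052), each with 1 control cell left, whose spread is taken from the other groups. The controls differ in kind, with donor RNA in fibroblasts and a mock transfection in astrocytes, and this cannot be told apart from the recipient type.

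Genes for proteins that work with the channels (anchors such as Ank2 and Ank3, the sodium pump, the sodium-calcium exchanger Slc8a1, gap junction and ATP-sensitive channel partners) were listed as well, and 31 of 36 were measured. None passed in any of the 7 comparisons with limma. The closest were Stac, an adaptor of L-type calcium channels, at 4.79 ± 1.09 in fibroControl cells (SD, n = 3) and 8.56 ± 1.19 in fibroblast cells (n = 3, adjusted p = 0.0568), and Gja1, the main ventricular gap junction protein, at 9.98 ± 1.27 in fibroTIPeR cells (n = 5) and 11.7 ± 0.27 in cardiomyocyte cells (n = 4, adjusted p = 0.0715). Each of the 2 did not overlap between its groups. The same held for 23.4% of all genes in the comparison given for Stac and for 3.9% in that given for Gja1.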

How the data were processed

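The members and lists were chosen with earlier results of these data known. The authors deposited 1 table with a value per probe set and array, read as log2 expression from its range, and the summarization and normalization before deposit are not stated in the labels. Quantile normalization of all 23 arrays was applied here. The 64 control probe sets were left out, 34945 others had 1 gene symbol, 932 had several and 9160 were not listed, and the last 2 kinds were not used. Gene IDs of all 254 member probe sets matched the RefSeq gene table. Where a gene had several probe sets, the one of highest mean was used. limma 3.58.1 in R 4.3.3 fitted a mean for each of the 6 groups (lmFit, eBayes with trend), two-sided, with Benjamini-Hochberg adjustment over 18193 genes and a threshold of 0.05. No pseudocount was needed. The steps were tested on simulated data. Text names all members past the threshold of a comparison (12 per direction at most) and the 3 of smallest p where fewer than 3 passed. It also names genes of fixed cardiac, astrocyte and fibroblast sets. Not every gene of the cardiac set is described in the text. Scn4b and Kcnj11 appear only in the figure of that set, which shows all its measured genes. Alternatives covered normalization, level filter, probe sets, samples in the fit, the replicate number, the 18S level and each cell left out. The number of arrays limits the precision. No pair of arrays held identical values. Figures used matplotlib 3.10.9 in Python 3.11.15.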

Additional observations from a re-analysis of the deposited data

Results flagged for a closer look

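In 120 groups of 4 to 6 cells over 40 channel genes, 14 had a cell far from the others of its group. Chance gives about 1 in 20, or 6 groups. The 40 were the measured genes of the fixed sets and the genes called or of smallest p in a comparison. Other channel genes described above, such as Scn3b, Kcnk7 and Kcnv2, were not examined in this way. The labels give no second measurement of any of these cells.

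Of cardiomyocyte cells, cell 3 had Cacna1c, the L-type pore, at 10.44, against 6.58 to 7.02 in the other 3. Cell 1 had the pacemaker gene Hcn2 at 2.85, against 4.52 to 4.62, and the inward rectifier Kcnj12 at 4.95, against 2.84 to 3.17. Cell 2 had the A-type pore Kcnd2 at 7.29, against 4.81 to 5.13, and the tandem-pore gene Kcnk2 at 8.70, against 7.05 to 7.33. Cell 4 had the accessory gene Kcne1 at 5.10, against 4.28 to 4.39.

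Of astroTIPeR cells, cell 2 had Kcnq1 at 10.46, against 5.52 to 7.12, and Cacna2d2 at 4.85, against 6.35 to 7.19. Cell 3 had Cacnb2 at 6.28, against 3.26 to 4.37, and Kcnj5 at 5.32, against 7.69 to 8.46. Cell 6 had Kcnj8, a pore of ATP-sensitive channels, at 4.15, against 7.14 to 8.67. Cell 1 had Kcnk3 at 7.77, against 5.66 to 6.32.

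Of fibroTIPeR cells, cell 2 had Cacnb2 at 5.38, against 2.92 to 3.61, and cell 1 had Kcnd1 at 8.10, against 3.72 to 4.81.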

How the results depend on the processing

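Over 399 values of single channel genes under other settings, 335 kept direction and side of the threshold, 53 lost the call, 11 gained one and 0 reversed. Only Kcnt2 between fibroTIPeR and fibroblast cells and the 4 genes called between fibroControl and fibroblast cells had a call to lose. All 53 losses were among their values. Genes not called could not lose one, so the 335 do not measure how stable the calls were. Of 133 counts, 93 stayed the same by the rule used. That rule asked for 0 where the reported count was 0, and for a count within 1.5 times of it otherwise. Between fibroTIPeR and fibroblast cells the 1 call, Kcnt2, became 0 under median centring, normalization within each array set, genes above the median level only (which leaves Kcnt2 out), the mean of probe sets, every probe set, the compared groups alone, the replicate block, the 18S covariate and fibroTIPeR cells 4 and 5 alone, and 7 with cells 1 to 3 alone. Between fibroControl and fibroblast cells the 4 calls became 2 with values as deposited or the mean of probe sets, 1 under median centring, normalization within sets, genes above the median or the replicate block, and 0 with the compared groups alone or the 18S covariate. FibroTIPeR against cardiomyocyte cells gave 4 with cells 1 to 3 alone. FibroTIPeR against fibroControl cells gave 1 with cells 4 and 5 alone. AstroTIPeR against astroControl cells gave 1 as deposited, 2 under median centring and 1 within sets. The share of all genes called moved as well. With fibroTIPeR cells 1 to 3 alone it went from 0.055% to 3.35% against fibroblast cells and from 0.561% to 5.8% against cardiomyocyte cells. With cells 4 and 5 alone it went from 0.0055% to 0.885% against fibroControl cells. For most other settings that share is not given here, so these counts do not set the channel genes apart. The cause of these changes was not tested. The split of the fibroTIPeR cells was picked after the values were seen, so the counts it gave describe the cells kept.

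With each cell left out in turn, the counts ran from 0 to 1 for cardiomyocyte against fibroblast cells, 0 to 1 for fibroTIPeR against fibroControl cells, 0 to 1 for fibroTIPeR against fibroblast cells, 0 to 2 for fibroControl against fibroblast cells, 0 to 4 for astroTIPeR against astroControl cells and 0 to 2 for the difference between recipients. FibroTIPeR against cardiomyocyte cells stayed at 0. The shares of all genes called with a cell left out are not given beside these counts, so the counts do not set the channel genes apart. Without fibroblast cell 3, 0 channel genes passed between fibroControl and fibroblast cells. Without fibroControl cell 3 the 1 gene was Kcnk4, higher.

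Replicate numbers did not pair the cells. Over 44 pairs of cells with the same number in different groups, the median correlation of deviations was 0.00 (-0.34 to 0.29), 8 were over 0.1, and 5 of 23 cells correlated best with a cell of their own number. The replicate block left 0 and 1 calls in the comparisons with fibroblast cells, as above. With 2 to 6 cells a group, differences of a few log2 units in a variable gene could go without a call.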
